A study of Mus musculus with 6 samples.

Results

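The Hox genes are described here as they were measured in the small intestine of the mouse shortly before birth, in the epithelium and in the mesenchyme. Members were all probe sets whose gene symbol in the platform annotation was Hox, a cluster letter from a to d and a number, which gave 48 probe sets for 33 genes, out of 45037 probe sets for 18161 genes. Hoxb8 and Hoxd4 had only probe sets shared with a neighbour and were not counted among the 33, and Hox genes without a probe set of their own were not analysed here. The study compared 3 arrays of epithelium (A, B and C) with 3 arrays of mesenchyme (A, B and C). Each array carried RNA from 1 pool of 3 embryos of C57BL/6 dams at E18.5 (days of embryonic age), with no genetic change or treatment. The intestine was taken whole, from duodenum to cecum, so position along the gut was averaged within every pool, and the layers came apart during 9 hours in the cold in a solution meant to free the epithelium. The 3 pools per tissue were picked from 6 by RT-PCR for purity, which can narrow their spread, and nothing in the labels says that equal letters shared embryos.

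Hox genes encode homeodomain transcription factors that give cells along the head-to-tail axis their regional identity. They lie in clusters, and genes at the same place in different clusters form paralog groups, numbered from the end that is active first and farthest to the front. In the gut, Hox expression is best known from the mesoderm that becomes muscle and connective tissue and from the neural crest that becomes the enteric nervous system, and the highest-numbered groups are known from the hindgut and the genital region. Hox proteins bind DNA together with TALE homeodomain partners of the Pbx, Meis and Pknox families, and their genes respond to retinoic acid, to Cdx factors and to the Polycomb and Trithorax chromatin complexes.

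A level below is the deposited log2 value of a probe set in 1 array. A difference is epithelium minus mesenchyme on that scale, given ± the moderated standard error from limma, with 3 arrays of each tissue. A negative difference means lower in the epithelium. Moderation draws the variance of each probe set toward that typical of all probe sets. The prior carried 31.7 degrees of freedom and the arrays 4, so the errors reflect mostly the other probe sets. A probe set was called when its adjusted p was under 0.05 and its difference at least 1, which is 2-fold. Because probe sets differ in how brightly they read a transcript, differences were taken between tissues within a probe set. Levels were set against other probe sets to pick the brightest, leave out dim ones, sum markers and judge background by bacterial controls. The background readings are therefore rough. In whole tissue, fewer cells of a type and less RNA per cell cannot be told apart.

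Most measured Hox genes of paralog groups 2 to 8 were higher in the mesenchyme, and no Hox gene was called higher in the epithelium. Of 48 probe sets, 22 were called lower in the epithelium, against 15.5% of all probe sets tested, and 0 were called higher there, against 5.98%. At an unadjusted p under 0.05 in limma, 30 were lower and 0 higher in the epithelium. The share of all probe sets or genes at that p is not given here. The counts at an unadjusted p, here and below, thus have no baseline, and the shares for calls are not one. All 22 called probe sets belonged to paralog groups 2 to 8, where 22 of 29 were called. None of 17 in groups 9 to 13 and none of 2 in group 1 was called, with 2 and 0 lower in the epithelium at an unadjusted p under 0.05. These bands were drawn after the values were seen, and no test of them was made. The median difference was -0.68 over the Hox probe sets and -0.17 over all probe sets. Called probe sets differed by 2 to 31.3-fold.

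**Figure D1:**
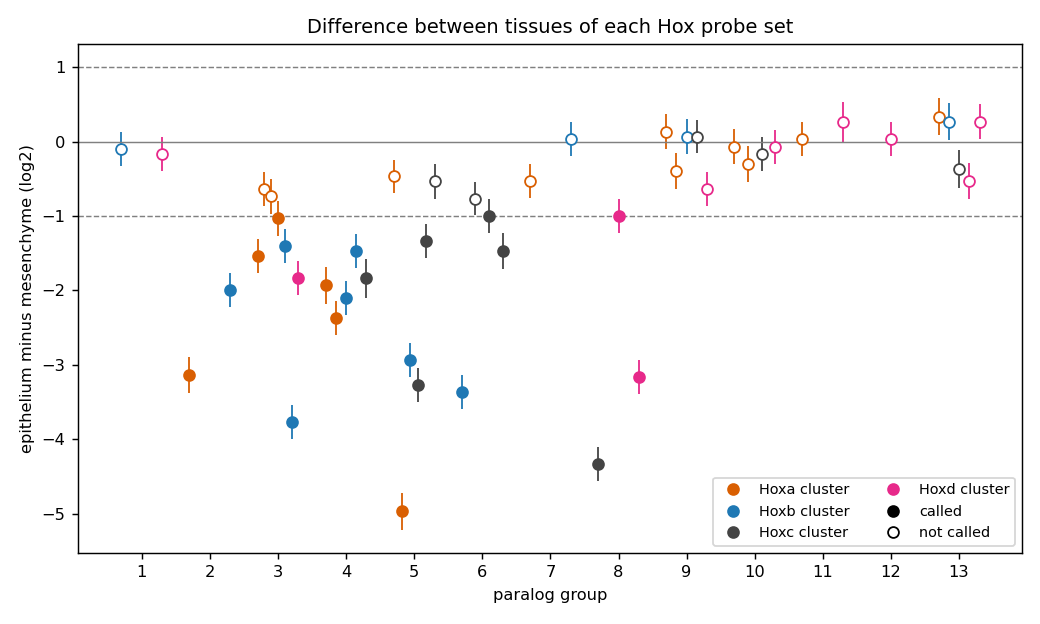
Difference between epithelium and mesenchyme (log2, vertical axis) of each of 48 Hox probe sets by paralog group (horizontal axis), coloured by cluster, with bars for the standard error and dashed lines at the 2-fold threshold. Filled points, all in groups 2 to 8 and all below zero, were called, and the points of groups 1 and 9 to 13 lie between -0.63 and 0.33.

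By gene, 12 of 33 Hox genes were called lower in the epithelium when each was represented by its brightest probe set, against 15.9% of all genes, and 0 were called higher there, against 8.19%. The called genes were Hoxa2, Hoxa3 and Hoxa4, Hoxb2 to Hoxb6, Hoxc4 and Hoxc8, and Hoxd3 and Hoxd8. Hoxa5, Hoxc5 and Hoxc6 were called by another of their probe sets but not by the brightest, so that 15 genes had at least 1 called probe set. With every probe set of a gene required to be called, 11 genes remained. By cluster, genes with a called probe set numbered 4 of 9 in Hoxa, 5 of 9 in Hoxb, 4 of 7 in Hoxc and 2 of 8 in Hoxd. The share of all genes with at least 1 called probe set is not given here, so these counts have no baseline. By the brightest probe set, to which the 15.9% applies, the counts were 3, 5, 2 and 2. Each cluster thus held called genes, and in each the uncalled ones included all measured genes of groups 9 to 13.

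**Figure D2:**
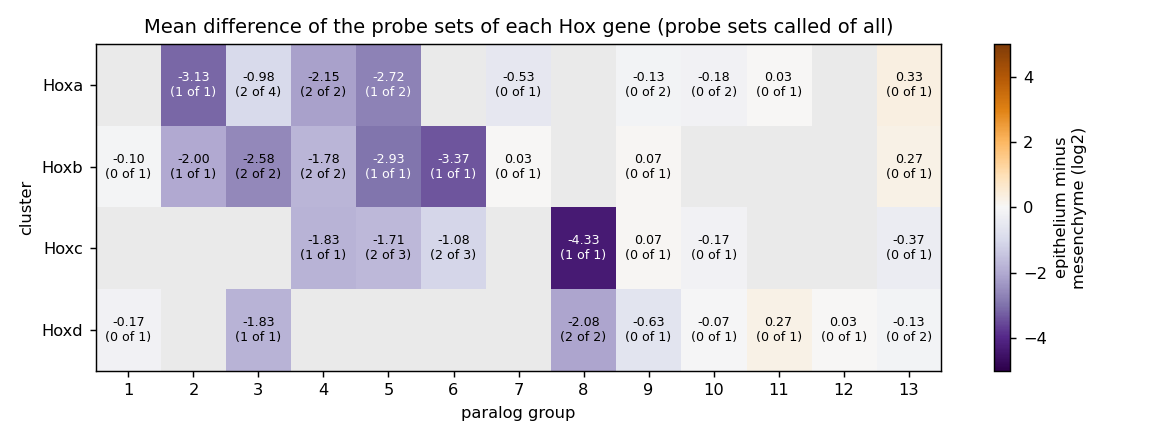
Map of the Hox clusters (rows) by paralog group (columns), each cell giving the mean difference over all probe sets of that gene (epithelium minus mesenchyme, log2) and the number of its probe sets called, on a colour scale running to violet (lower in the epithelium) or orange (higher). Grey cells are places with no gene or no probe set of its own, and the darkest cells are Hoxa2 (-3.13), Hoxb6 (-3.37) and Hoxc8 (-4.33), all within groups 2 to 8.

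The promoters on both sides of this boundary are shown because Hoxa5 and Hoxd8 carried called probe sets while the next measured genes of the same clusters, Hoxa7 and Hoxd9, carried none. Hoxb4 and Hoxa2 are shown as called genes with further sequence matches. The stretches are the 250 bases before each transcription start, from RefSeq in the build GRCm38.p6, written in the direction of the gene and ending at its start. They lie at chr6:52204588-52204837 (minus strand), chr6:52218574-52218823 (minus), chr2:74704365-74704614 (plus), chr2:74697513-74697762 (plus), chr11:96318017-96318266 (plus) and chr6:52164832-52165081 (minus). Capitals mark matches, on either strand, to TGATNNAT (a joint Hox and Pbx motif), TGACAG (Meis and Pknox), TTTATNG (Cdx) or AGGTCA (the half-site of nuclear receptors such as those for retinoic acid). No marked matches overlap.
Hoxa5: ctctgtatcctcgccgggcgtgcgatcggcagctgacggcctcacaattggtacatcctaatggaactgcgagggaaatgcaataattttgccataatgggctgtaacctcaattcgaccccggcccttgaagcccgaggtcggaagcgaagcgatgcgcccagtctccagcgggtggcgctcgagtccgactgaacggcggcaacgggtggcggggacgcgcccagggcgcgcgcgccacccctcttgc
Hoxa7: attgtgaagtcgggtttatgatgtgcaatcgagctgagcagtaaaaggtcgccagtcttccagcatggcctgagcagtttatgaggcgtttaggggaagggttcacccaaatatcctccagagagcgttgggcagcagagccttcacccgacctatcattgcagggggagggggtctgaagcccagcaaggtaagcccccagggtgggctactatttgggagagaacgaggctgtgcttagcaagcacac
Hoxd8: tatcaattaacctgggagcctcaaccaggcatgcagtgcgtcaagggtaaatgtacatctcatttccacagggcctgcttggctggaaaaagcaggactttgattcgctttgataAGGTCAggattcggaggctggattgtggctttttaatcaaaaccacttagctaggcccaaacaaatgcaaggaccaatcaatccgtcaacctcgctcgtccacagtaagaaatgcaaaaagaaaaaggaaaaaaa
Hoxd9: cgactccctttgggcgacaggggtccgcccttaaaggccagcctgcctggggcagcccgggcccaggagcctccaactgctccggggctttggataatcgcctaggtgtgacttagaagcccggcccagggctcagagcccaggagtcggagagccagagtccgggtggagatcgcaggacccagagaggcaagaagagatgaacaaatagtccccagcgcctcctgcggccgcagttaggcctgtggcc
Hoxb4: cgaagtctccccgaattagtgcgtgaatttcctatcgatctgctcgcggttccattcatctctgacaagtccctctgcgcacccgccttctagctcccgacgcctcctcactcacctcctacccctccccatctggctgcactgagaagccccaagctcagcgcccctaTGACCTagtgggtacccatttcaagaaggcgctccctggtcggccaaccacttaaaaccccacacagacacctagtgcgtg
Hoxa2: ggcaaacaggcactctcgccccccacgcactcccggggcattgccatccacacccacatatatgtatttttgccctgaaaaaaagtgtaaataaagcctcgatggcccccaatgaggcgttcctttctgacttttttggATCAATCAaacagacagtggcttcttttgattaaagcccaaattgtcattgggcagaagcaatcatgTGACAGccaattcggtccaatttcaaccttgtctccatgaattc

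Of the 33 measured Hox genes, 19 had promoters in the table, 7 of them with a called probe set, and they gave 21 stretches in all. AGGTCA was found in 4 of 7 stretches of called genes (Hoxb4, Hoxc4, Hoxd3 and Hoxd8), in 1 of 14 of uncalled genes (Hoxd10), and in 14.0% of 32851 mouse promoters of the same length. TGACAG was found in 2 of 7 (Hoxa2 and Hoxa3), in 0 of 14 and in 15.9% of all. TGATNNAT was found in 1 of 7 (Hoxa2), in 2 of 14 and in 7.68% of all. TTTATNG was in none of the 21, against 9.81% of all. The median GC content was 58.0% in stretches of called genes and 59.2% in those of uncalled genes, against 52.4% over all promoters. A match describes these letters only, and the motifs were chosen with the expression values known.

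The plot of every probe set by array shows the spread behind these calls. Standard deviations of the called probe sets ran from 0.06 to 0.71 in the epithelium and from 0.06 to 0.50 in the mesenchyme. For 29 of 48 Hox probe sets, all epithelial arrays lay below all mesenchymal arrays, as they did for 29.3% of all probe sets. No Hox probe set had all epithelial arrays above all mesenchymal arrays, against 12.4% of all probe sets. In the epithelium, 17 of the 22 called probe sets averaged at or below 8.17, the highest epithelial mean among 27 control probe sets for bacterial transcripts that mouse tissue does not make. A fold change at such levels includes background signal, and how much Hox RNA the epithelium held was not resolved there. The median of the control means was 5.7, and 8.17 lay near the epithelial array medians of 8.1 to 8.6. The share of all probe sets at or below 8.17 is not given here, so counts below it do not set the Hox genes apart.

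**Figure D3:**
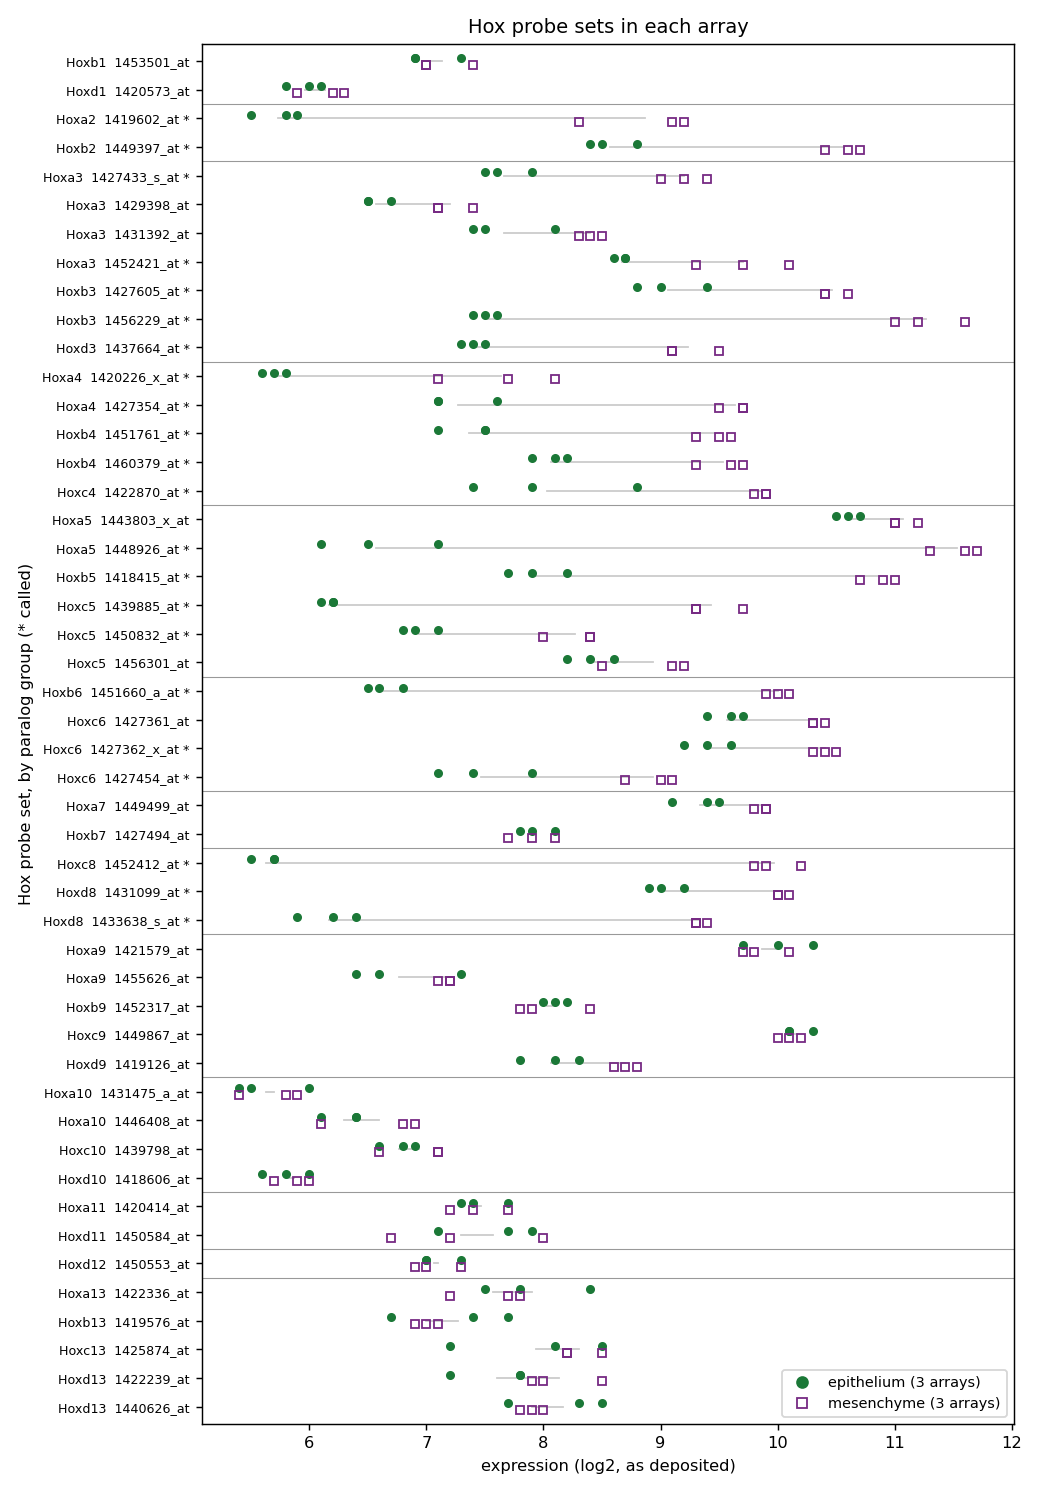
Expression (log2 as deposited, horizontal axis) of each Hox probe set (rows, grouped by paralog group) in 3 epithelial arrays (filled circles) and 3 mesenchymal arrays (open squares), with grey lines joining the tissue means and asterisks on called probe sets. The tissues stand apart in most rows of groups 2 to 8 and overlap in most rows of groups 1 and 9 to 13.

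Group 1 was represented by Hoxb1 and Hoxd1, of which Hoxb1 is known for patterning the hindbrain. Hoxb1 (1453501_at) stood at 6.9, 7.3 and 6.9 in the epithelium, against 7.0, 7.0 and 7.4 in the mesenchyme. Hoxd1 (1420573_at) stood at 5.8, 6.1 and 6.0 in the epithelium, against 5.9, 6.3 and 6.2 in the mesenchyme. The tissues overlapped for both, with differences of -0.10 ± 0.23 and -0.17 ± 0.23, neither of which passed the test (limma, adjusted p = 0.782 and 0.627). All tissue means of these probe sets lay below 8.17, the highest bacterial control mean, so equal expression was not shown.

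Group 2 showed a large difference in both measured genes. Hoxa2, which sets the identity of the second pharyngeal arch, stood at 5.5, 5.8 and 5.9 in the epithelium, against 9.2, 8.3 and 9.1 in the mesenchyme (1419602_at). Hoxb2, a neighbour in function in the hindbrain, stood at 8.5, 8.8 and 8.4 in the epithelium, against 10.7, 10.6 and 10.4 in the mesenchyme (1449397_at). No arrays overlapped between tissues. The differences were -3.13 ± 0.25 for Hoxa2, which is 8.77-fold, and -2.0 ± 0.23 for Hoxb2, which is 4-fold (limma, adjusted p = 2.30e-13 and 2.89e-09).

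Group 3 was called in Hoxa3, Hoxb3 and Hoxd3. Hoxb3, active in hindbrain and pharynx, stood at 7.5, 7.4 and 7.6 in the epithelium, against 11.6, 11.2 and 11.0 in the mesenchyme, by 1456229_at. By its other probe set, 1427605_at, it stood at 8.8, 9.4 and 9.0 in the epithelium, against 10.4, 10.6 and 10.4 in the mesenchyme. Both probe sets separated the tissues, by -3.77 ± 0.23 and -1.40 ± 0.23 (adjusted p = 2.59e-16 and 4.95e-06). Hoxd3, which shapes the first vertebrae, stood at 7.3, 7.4 and 7.5 in the epithelium, against 9.1, 9.1 and 9.5 in the mesenchyme (1437664_at), a difference of -1.83 ± 0.23 (adjusted p = 1.95e-08). Hoxa3, needed for thymus and parathyroid formation, had 4 probe sets, all with epithelial arrays below mesenchymal ones, and differences from -0.63 to -1.53. Of these, 1427433_s_at stood at 7.5, 7.9 and 7.6 in the epithelium, against 9.2, 9.4 and 9.0 in the mesenchyme (-1.53 ± 0.23). The brightest, 1452421_at, stood at 8.7, 8.7 and 8.6 in the epithelium, against 10.1, 9.7 and 9.3 in the mesenchyme (-1.03 ± 0.24). The other 2, 1429398_at (-0.63 ± 0.23) and 1431392_at (-0.73 ± 0.24), did not reach 2-fold. The call of 1452421_at ended when arrays were set to equal medians (-0.73), quantile normalized (-0.69), scaled by cyclic loess (-0.75) or centred on ribosomal protein genes (-0.72), and without mesenchyme A (-0.83). In RefSeq, the spans of Hoxa3, Hoxb3 and Hoxd3 include neighbouring Hox genes, so a probe set there can lie within more than 1 gene.

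Group 4 was called in all 3 measured genes and by all 5 probe sets. Hoxa4, whose excess in transgenic mice enlarges the colon, stood at 7.1, 7.6 and 7.1 in the epithelium, against 9.7, 9.7 and 9.5 in the mesenchyme by 1427354_at. By 1420226_x_at it stood at 5.6, 5.7 and 5.8 in the epithelium, against 8.1, 7.1 and 7.7 in the mesenchyme. These probe sets agreed within the spread of arrays, with differences of -2.37 ± 0.23 and -1.93 ± 0.24. Hoxb4, known for expanding blood stem cells, stood at 7.1, 7.5 and 7.5 in the epithelium, against 9.6, 9.5 and 9.3 in the mesenchyme by 1451761_at (-2.10 ± 0.23). Its other probe set, 1460379_at, stood at 8.1, 7.9 and 8.2 in the epithelium, against 9.7, 9.6 and 9.3 in the mesenchyme (-1.47 ± 0.23), again without overlap. Hoxc4 was the called probe set with the widest epithelial spread, at 7.9, 8.8 and 7.4 in the epithelium, against 9.8, 9.9 and 9.9 in the mesenchyme (1422870_at, -1.83 ± 0.26, adjusted p = 3.39e-07). Epithelium B was the highest of the epithelial arrays for it and still lay below every mesenchymal array. Hoxd4 was read only together with Hoxd3. Of their 2 shared probe sets, 1421537_at was called, with 7.4, 7.8 and 7.5 in the epithelium, against 9.9, 10.0 and 9.4 in the mesenchyme (-2.20 ± 0.23). The other, 1450209_at, differed by -0.87 ± 0.24 and was not called.

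Group 5 was called in Hoxa5, Hoxb5 and Hoxc5. Hoxa5, a regulator of lung and gut mesenchyme, stood at 6.1, 7.1 and 6.5 in the epithelium, against 11.7, 11.6 and 11.3 in the mesenchyme by 1448926_at. This was a difference of -4.97 ± 0.25, or 31.3-fold (limma, adjusted p = 6.53e-19). Its other probe set, 1443803_x_at, stood at 10.5, 10.6 and 10.7 in the epithelium, against 11.0, 11.0 and 11.2 in the mesenchyme, and was not called (-0.47 ± 0.22, adjusted p = 0.104). The suffix x of that name marks probe sets in which some probes can match other sequences. Hoxb5, expressed in enteric neural crest and gut mesoderm, stood at 7.9, 8.2 and 7.7 in the epithelium, against 11.0, 10.9 and 10.7 in the mesenchyme (1418415_at). Its difference was -2.93 ± 0.23, or 7.64-fold (adjusted p = 2.29e-13). Hoxc5 was called by 1439885_at, which stood at 6.1, 6.2 and 6.2 in the epithelium, against 9.7, 9.3 and 9.3 in the mesenchyme (-3.27 ± 0.23), and by 1450832_at, with 7.1, 6.9 and 6.8 in the epithelium, against 8.4, 8.0 and 8.4 in the mesenchyme (-1.33 ± 0.23). Its brightest probe set, 1456301_at, overlapped between tissues, at 8.2, 8.6 and 8.4 in the epithelium, against 9.2, 8.5 and 9.1 in the mesenchyme (-0.53 ± 0.24, adjusted p = 0.0769).

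Group 6 differed more in Hoxb6 than in any probe set of Hoxc6. Hoxb6, a marker of lateral mesoderm, stood at 6.6, 6.8 and 6.5 in the epithelium, against 10.0, 10.1 and 9.9 in the mesenchyme (1451660_a_at, -3.37 ± 0.23, 10.3-fold, adjusted p = 3.10e-15). Hoxc6 was called by 1427454_at (-1.47 ± 0.24), with 7.1, 7.9 and 7.4 in the epithelium, against 8.7, 9.0 and 9.1 in the mesenchyme. It was also called by 1427362_x_at, which lay at the threshold (-1.0 ± 0.23), with 9.2, 9.4 and 9.6 in the epithelium, against 10.3, 10.5 and 10.4 in the mesenchyme, but not by 1427361_at (-0.77 ± 0.23, adjusted p = 0.00615). Epithelial and mesenchymal arrays did not overlap for any of the 3. The call at the threshold ended under the 4 scalings other than spike-in centring, which uses control RNAs added to each sample (-0.68 to -0.75), and without epithelium A (-0.90) or mesenchyme B (-0.95), while 1427361_at passed under spike-in centring of all arrays (-1.03).

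Groups 7 and 8 lay at the boundary. Hoxa7 stood at 9.1, 9.5 and 9.4 in the epithelium, against 9.9, 9.9 and 9.8 in the mesenchyme (1449499_at), without overlap, but at -0.53 ± 0.23 it was not called (adjusted p = 0.0623). Hoxb7 by its own probe set, 1427494_at, stood at 7.8, 7.9 and 8.1 in the epithelium, against 7.9, 7.7 and 8.1 in the mesenchyme (0.03 ± 0.23). Both of these tissue means lay below 8.17, the highest bacterial control mean. The probe set shared by Hoxb7 and Hoxb8 (1452493_s_at) stood at 6.2, 6.8 and 6.2 in the epithelium, against 8.4, 8.1 and 8.8 in the mesenchyme, a called difference of -2.03 ± 0.24. Which of the 2 genes it read there was not tested. Hoxc8, known from motor neurons and the thoracic skeleton, stood at 5.7, 5.5 and 5.7 in the epithelium, against 9.8, 10.2 and 9.9 in the mesenchyme (1452412_at, -4.33 ± 0.23, adjusted p = 3.08e-18). Its epithelial mean of 5.63 lay below 5.7, the median of the bacterial control means, so background bounds its difference and no exact fold can be read. Hoxd8 stood at 5.9, 6.2 and 6.4 in the epithelium, against 9.4, 9.3 and 9.3 in the mesenchyme by 1433638_s_at (-3.17 ± 0.23, 8.98-fold). Its brightest probe set, 1431099_at, lay at the threshold, with 8.9, 9.2 and 9.0 in the epithelium, against 10.1, 10.0 and 10.0 in the mesenchyme (-1.0 ± 0.23). This call ended under the same 4 scalings (-0.68 to -0.72) and when epithelium A (-0.93), mesenchyme A (-0.97) or epithelium C (-0.98) was left out.

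Genes of groups 9 to 13 were not called in either direction. Their 17 probe sets covered 14 genes, with a median difference of 0.03. The deposited values put 8 of these differences below zero and 9 above it, but this split followed the scaling. It was 4 or 5 below and 12 or 13 above under equal medians, quantile, cyclic loess and ribosomal centring, and 13 below and 4 above under spike-in centring, so that no common direction can be read. Intervals of 95% for these differences reached no lower than -1.10 and no higher than 0.84. For 12 of the 17, both tissue means lay at or below 8.17, the highest bacterial control mean, so that absence of a difference between expressed levels was not shown for them. In group 9, Hoxa9, known from blood formation, stood at 9.7, 10.3 and 10.0 in the epithelium, against 9.8, 9.7 and 10.1 in the mesenchyme (1421579_at, 0.13 ± 0.23). Hoxc9 stood at 10.1, 10.3 and 10.1 in the epithelium, against 10.0, 10.1 and 10.2 in the mesenchyme (1449867_at, 0.07 ± 0.22). By both of these probe sets the tissues overlapped, at tissue means above 8.17. The other Hoxa9 probe set, 1455626_at, stood at 6.4, 7.3 and 6.6 in the epithelium, against 7.2, 7.1 and 7.2 in the mesenchyme, with both means below 8.17 (-0.40 ± 0.24).

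Of the 17 probe sets of groups 9 to 13, that of Hoxd9 and 1 of Hoxd13 (1422239_at) had all epithelial arrays below all mesenchymal arrays. Hoxd9 measured 7.8, 8.1 and 8.3 in the epithelium, against 8.7, 8.6 and 8.8 in the mesenchyme (1419126_at). At -0.63 ± 0.23 its adjusted p was 0.0266, below 0.05, but the difference stayed under 2-fold. Hoxb9 stood at 8.2, 8.1 and 8.0 in the epithelium, against 7.8, 7.9 and 8.4 in the mesenchyme (0.07 ± 0.23). Groups 10, 11 and 12 gave differences from -0.30 (Hoxa10) to 0.27 (Hoxd11), and all of their probe sets overlapped between tissues.

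Group 13, known from the hindgut, the genital tubercle and the digits, was represented by 4 genes. Hoxa13 stood at 7.5, 8.4 and 7.8 in the epithelium, against 7.7, 7.2 and 7.8 in the mesenchyme (0.33 ± 0.25, adjusted p = 0.322). This was the highest difference in the family. Hoxb13, a gene of prostate and tail bud, differed by 0.27 ± 0.24 and Hoxc13, a gene of hair follicles, by -0.37 ± 0.26. Hoxd13, which shapes the digits, stood at 7.2, 7.8 and 7.8 in the epithelium, against 8.0, 7.9 and 8.5 in the mesenchyme by 1422239_at, without overlap (-0.53 ± 0.24, adjusted p = 0.0813). By 1440626_at it stood at 7.7, 8.5 and 8.3 in the epithelium, against 8.0, 7.9 and 7.8 in the mesenchyme, with overlap (0.27 ± 0.24). Neither probe set was called.

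Of 11 Hox genes with several probe sets, 4 were called by all of them (Hoxa4, Hoxb3, Hoxb4 and Hoxd8), 4 by some (Hoxa3, Hoxa5, Hoxc5 and Hoxc6) and 3 by none (Hoxa9, Hoxa10 and Hoxd13). Between the probe sets of one gene with the largest and the smallest difference, the differences themselves differed by -4.5 in Hoxa5, -2.73 in Hoxc5, -2.37 in Hoxb3 and -2.17 in Hoxd8. These pairs were picked for their difference, so the values are a description with no test, and the cause was not tested.

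**Figure D4:**
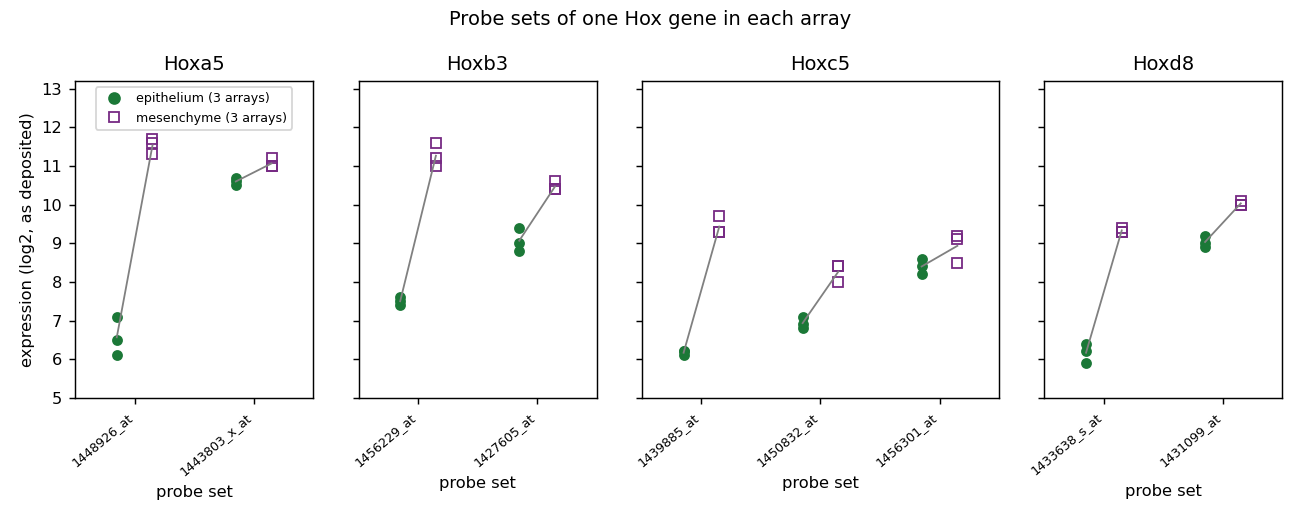
Expression (log2 as deposited, vertical axis) of every probe set of Hoxa5, Hoxb3, Hoxc5 and Hoxd8 (horizontal axis, ordered by difference) in epithelial arrays (filled circles) and mesenchymal arrays (open squares), with lines between the tissue means. In each gene every probe set has its mesenchymal mean above its epithelial mean, and the 2 probe sets of Hoxa5 differ by -4.97 and -0.47.

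Noncoding genes of the clusters did not follow a common pattern. Hoxd3os1, transcribed opposite to Hoxd3, had 1 probe set lower in the epithelium (1460056_at, -2.33 ± 0.27, called) and 1 that did not pass (1430263_at, 0.57 ± 0.25). Hoxb5os (1447886_at) differed by -0.43 ± 0.23 and both probe sets of Hoxa11os by 0.07 or less, none of them called.

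Most measured partners of Hox proteins were also higher in the mesenchyme. Of 8 measured TALE cofactor genes, 5 were called lower in the epithelium (Meis1, Meis2, Pbx2, Pbx3 and Pknox2) and 0 higher, against 15.9% and 8.19% of all genes. Meis1 stood at 7.3, 8.2 and 7.6 in the epithelium, against 10.6, 10.6 and 10.5 in the mesenchyme (1443260_at, -2.87 ± 0.24). Meis2 stood at 8.0, 8.8 and 8.2 in the epithelium, against 11.1, 11.1 and 11.2 in the mesenchyme (1417129_a_at, -2.80 ± 0.24). Both had probe sets with larger differences, of -4.67 for Meis1 and -4.5 for Meis2, and Meis1 had a further one at 0.20. Pbx3 differed by -1.70 ± 0.23 by its brightest probe set and by -5.07 by the other, and Pbx2 by -1.40 ± 0.24. Pknox2 (-1.17 ± 0.22) lost its call under the 4 scalings other than spike-in centring (-0.84 to -0.92) and in the mean of its probe sets (-0.85).

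Some genes of the Cdx and ParaHox families, homeobox relatives of the Hox genes, went the other way. Of 6 measured, 3 were called higher in the epithelium, against 8.19% of all genes, and 0 lower, against 15.9%. At an unadjusted p under 0.05 in limma, 3 were higher and 0 lower. Cdx1, a regulator of Hox genes and of intestinal identity, stood at 10.3, 10.9 and 10.3 in the epithelium, against 7.0, 7.3 and 7.5 in the mesenchyme (3.23 ± 0.24). Cdx2 stood at 10.4, 11.4 and 10.9 in the epithelium, against 7.9, 7.9 and 8.3 in the mesenchyme (2.87 ± 0.25), and Pdx1, of duodenum and pancreas, differed by 2.0 ± 0.24. No arrays overlapped for these 3 genes. Cdx4, Gsx1 and Gsx2 were not called. Evx1 (0.70 ± 0.24) and Evx2 (-0.43 ± 0.24), even-skipped homologues beside the Hox clusters, were not called either. For Evx1 all epithelial arrays lay above all mesenchymal arrays. Its adjusted p was 0.0205 in limma, below 0.05, but the difference stayed under 2-fold. Its tissue means, 8.13 in the epithelium and 7.43 in the mesenchyme, both lay below 8.17, the highest bacterial control mean.

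Of 13 measured retinoic acid genes, 6 were called lower in the epithelium, against 15.9% of all genes, and 0 higher, against 8.19%. Aldh1a2, the main retinoic acid-making enzyme of the embryo, stood at 7.2, 7.1 and 7.4 in the epithelium, against 12.0, 12.1 and 11.9 in the mesenchyme (1422789_at, -4.77 ± 0.23). Aldh1a3, a related enzyme, differed by -3.40 ± 0.23, and the receptors Rarg and Rarb by -1.67 ± 0.24 and -1.5 ± 0.26. The other probe set of Rarg was not called (1419416_a_at, -0.37 ± 0.23), and those of Aldh1a3 differed by -2.30 and -6.90. Among chromatin regulators, 7 of 26 Polycomb genes and 2 of 11 MLL and Trithorax genes were called lower in the epithelium, against 15.9% of all genes, and 0 of either list were higher, against 8.19%. The MLL and Trithorax count is near that of all genes and is no result about the list. In the TALE, retinoic acid, Polycomb, and MLL and Trithorax lists, 0 brightest probe sets were higher in the epithelium at unadjusted p under 0.05 (limma). Some less bright probe sets of Polycomb genes were higher there. Of these, 1453636_at of Pcgf5 was called (1.0 ± 0.24). Suz12 by 1420022_s_at (0.73 ± 0.23) and Pcgf6 by 1432108_at (0.77 ± 0.25) stayed under 2-fold. Cbx6, a chromodomain protein, differed by -2.80 ± 0.23, Bmi1, a core ring finger protein, by -1.90 ± 0.26, Kdm2b, which brings Polycomb to CpG islands, by -1.80 ± 0.25, and Phc2 by -1.5 ± 0.24. Ezh2, the enzyme that methylates histone H3, was not called (-0.90 ± 0.25). Some calls in these lists lay near the threshold. Phc3 lost its call under the 4 scalings other than spike-in centring (-0.68 to -0.81), without epithelium A (-0.85), mesenchyme A or mesenchyme B (-0.95 each) and in the mean of its probe sets (-0.67). Aldh1a1 lost its call under equal medians (-0.87), ribosomal centring (-0.85) and without epithelium C (-0.92), and Cyp26b1 under ribosomal centring (-0.98). Psip1, which tethers the menin and MLL complex to chromatin, differed by -3.30 ± 0.27. The menin gene Men1 (-1.03 ± 0.23) lost its call under the 4 scalings other than spike-in centring (-0.72 to -0.81), without epithelium A (-0.87) and in the mean of its probe sets (-0.68).

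**Figure D5:**
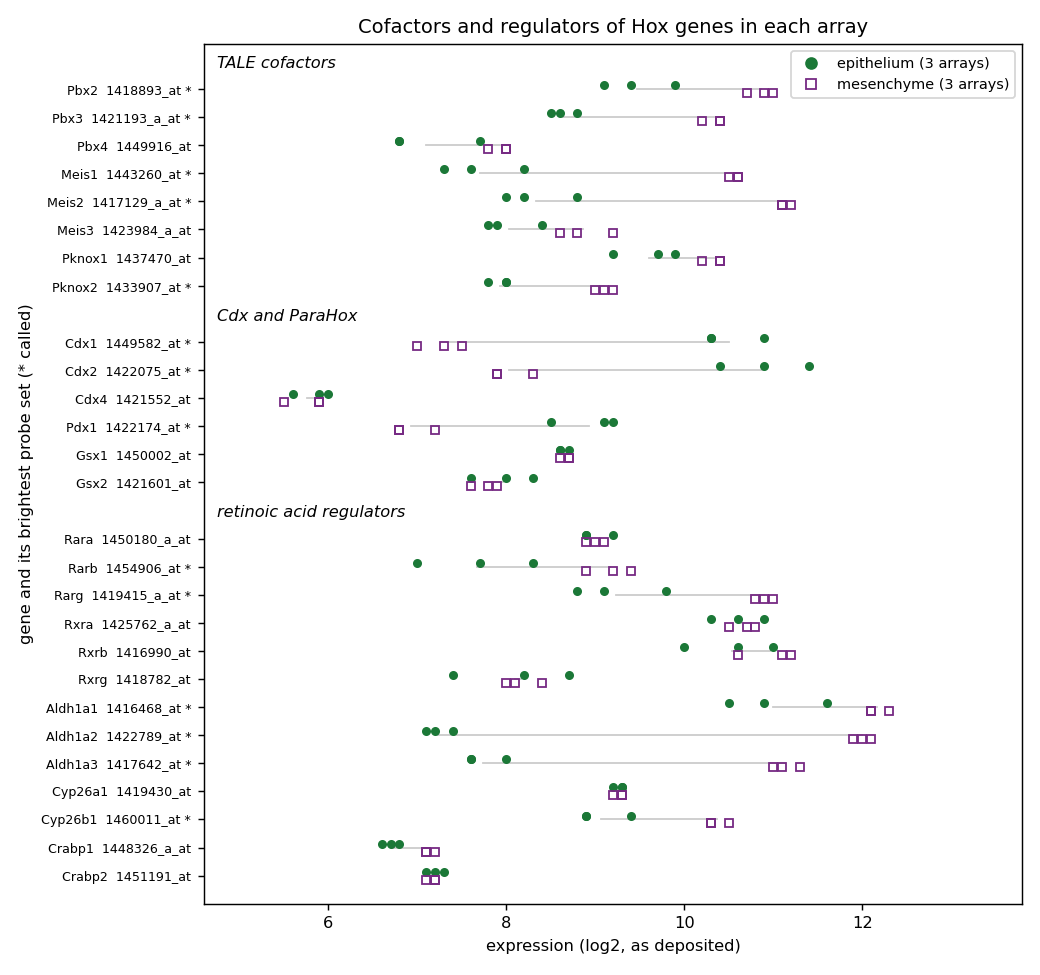
Expression (log2 as deposited, horizontal axis) of TALE cofactor, Cdx and ParaHox, and retinoic acid genes (rows, brightest probe set of each) in 3 epithelial arrays (filled circles) and 3 mesenchymal arrays (open squares), with asterisks on called genes. Cdx1, Cdx2 and Pdx1 lie higher in the epithelium, and Meis1, Meis2 and Aldh1a2 lie higher in the mesenchyme.

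Array medians ran from 8.1 to 8.6 in the epithelium and from 8.5 to 8.7 in the mesenchyme, and the median difference over all genes was -0.17. Scaling moved it by 0.21 to 0.32 under cyclic loess, quantile, median and ribosomal centring, and by -0.26 under spike-in centring. The mean of the spike-in controls was low in 1 array, mesenchyme B (9.80), and lay between 10.56 and 10.77 elsewhere. Tissue markers moved with the groups. All 10 epithelial markers were higher in the epithelium, where their summed linear signal was 133671 to 161225, against 7174 to 13619 in the mesenchyme. All 8 smooth muscle markers summed to 3215 to 3821 in the epithelium, against 121242 to 125968 in the mesenchyme, and all 7 fibroblast markers to 2268 to 2675 in the epithelium, against 94704 to 101616 in the mesenchyme. Of endothelial markers, 7 of 8 were called lower in the epithelium, against 15.9% of all genes. So were 4 of 6 of enteric neurons and glia and 6 of 8 of blood and immune cells. Mesothelial markers went both ways, with 4 of 6 lower and 1 higher (Krt19). Their median difference was -1.87, yet their summed linear signal was higher in the epithelium, at 9045 to 12210, against 5456 to 5733 in the mesenchyme. Such a sum follows the brightest genes, so it is no measure of mesothelial content. In which of these mesenchymal cells the Hox genes were expressed was not tested. Of markers of adjoining organs, 5 of 7 for liver, 2 of 6 for pancreas and 1 of 5 for kidney (Nphs1) were called higher in the epithelium, against 8.19% of all genes. For stomach, 1 of 7 (Sox2) was called lower in the epithelium, a share no greater than the 15.9% of all genes. These markers are given as measured. Whether the intestine itself made their transcripts was not tested, nor was their part in the Hox values.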

How the data were processed

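RNA of 3 epithelial and 3 mesenchymal pools was hybridized to Affymetrix mouse arrays. The deposited log2 values, 1 per probe set and array, came from RMA, per the submitters' processing notes. Its version, its settings and the step between arrays are not given in the sources used here. Values were rounded to 0.1 and carried no detection calls.

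Of 45101 probe sets, 64 controls were set aside. GEO's platform annotation named 1 gene for 34945 of the other 45037, several for 932 and none for 9160, and symbols were checked against RefSeq (GRCm38.p6). limma (version 3.58.1, R 4.3.3) was fitted to all probe sets by lmFit and eBayes with tissue as the only term, with Benjamini-Hochberg adjustment over all of them. This fit gave every standard error and p-value printed. It also gave the differences, except those under a named alternative, means over probe sets and the median over all genes. Counts of genes came from a second fit on the brightest probe set of each of 18161 genes, except list counts at an unadjusted p, which used the first fit. The number of arrays limits the precision. Whether pools of one tissue came from separate litters is not stated, so p-values refer to the spread between pools. That spread was moderated toward the one typical of all probe sets.

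Alternatives covered the scaling, the replicate block, leaving out each array, dim probe sets, the variance model, the threshold and the choice of probe set. On simulated data, the probe set fit recovered 66% of differences of 1.5 and 100% of differences of 3. The members, the gene lists and the tests were chosen with earlier results of these data known. Named genes were all measured Hox genes and up to 4 called genes of each list with the largest differences, and genes named beyond these (Pknox2, Aldh1a1, Cyp26b1, Phc3, Ezh2 and uncalled ones) were chosen after their values were seen. Protein sequences were not used here.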

Additional observations from a re-analysis of the deposited data

How the results depend on the processing

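Of the Hox counts, only leaving out dim probe sets moved one by more than 1.5 times. With probe sets under the median mean level left out, 16 Hox probe sets were tested and 10 were called lower in the epithelium, and of 13 Hox genes 7 were called, because fewer were tested. Under all other alternatives, 19 to 26 Hox probe sets and 10 to 16 Hox genes were called lower in the epithelium, and 0 were called higher. Leaving out 1 array gave 20 to 22 probe sets and 10 to 12 genes. Spike-in centring gave 23 probe sets and 13 genes, and with mesenchyme B left out as well, chosen after seeing the data, 20 and 11. No Hox call reversed. The mean of all probe sets added Hoxa5 (-2.72), Hoxc5 (-1.71) and Hoxc6 (-1.08) and ended Hoxa3 (-0.98). Without a minimum difference, Hoxa7, Hoxc5, Hoxc6 and Hoxd9 passed in the gene fit. Of uncalled probe sets, 5 or 6 changed sign under each of the 5 scalings, so the signs of their differences hold for the values as deposited only. With the letter as a replicate block, 22 Hox probe sets and 12 Hox genes were called, and the block changed no call. Whether equal letters pair the samples is not known. Their deviations from the tissue means correlated at -0.31 for A, -0.15 for B and 0.12 for C. With 3 arrays per tissue, these correlations cannot decide it. Cofactor and regulator genes called lower in the epithelium numbered 20, and 15 to 29 under the alternatives, with 3 called higher (2 to 4). Without detection calls, signal near background limits what the low probe sets show.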
